A study of Mus musculus with 6 samples.

Results

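Histone methyltransferases and demethylases are the enzymes that add methyl groups to histone tails and take them off, and their RNA was compared here between albiflorin and RANKL libraries of RAW264.7 cells. The genes were taken by a rule on names, chosen with earlier results of these data known. It took the protein-coding rows of the count table whose symbols begin with Kmt2, Kmt5, Kdm1 to Kdm8, Setd1 to Setd9, Ehmt, Suv, Ezh, Nsd, Whsc1, Dot1l, Ash1l or Prmt, leaving out Kdm5d. The rule gave 50 genes, out of 41921 rows of which 20461 were protein-coding: 33 methyltransferases or related SET-domain proteins and 17 demethylases. Prmt1, Setd3 and Setd9 were not among the rows the rule found and were not analysed here.

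RAW264.7 is a mouse monocyte/macrophage line, labelled wild type, that is widely used as an osteoclast precursor. The 3 albiflorin libraries came from cells under an albiflorin intervention, and the 3 RANKL libraries from cells under a RANKL intervention. Albiflorin is a monoterpene glycoside of peony root, and RANKL is the cytokine that drives macrophage precursors to become osteoclasts. All 6 libraries carry the label of osteoclast differentiation, and the treatment protocol given for all of them names 50 ng/mL RANKL, so the albiflorin cells are described as RANKL-treated too. The dose and duration of albiflorin and the time of harvest are not stated in the labels, and no library of untreated cells was analysed. Whether replicates are separate cultures is not labelled. The p-values therefore measure differences against the spread among these libraries alone, and that spread may be technical.

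Lysine methyltransferases mostly carry a SET domain and take the methyl group from S-adenosylmethionine (SAM), while Dot1l and the arginine methyltransferases use another fold with the same donor. Demethylases either use flavin, as Kdm1a and Kdm1b do, or belong to the JmjC oxygenases, which need iron and 2-oxoglutarate. Methylation of histone H3 at lysine 4 (H3K4) and lysine 36 marks active promoters, enhancers and gene bodies, whereas methylation at lysine 9 and lysine 27 marks silent chromatin. In osteoclast precursors these marks are known to be rewritten as macrophage genes are turned down and the regulator Nfatc1 is turned on. The values here are RNA levels of the enzymes and say nothing of enzyme activity or of the marks themselves. In bulk RNA, fewer cells of a kind and less RNA per cell cannot be told apart.

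The libraries held 13708041 to 15200418 counts under albiflorin and 13673284 to 15489482 under RANKL. Macrophage genes were abundant, with a mean of 1730 CPM (counts scaled to library size with TMM factors) under albiflorin against 1944 CPM under RANKL for Csf1r, the M-CSF receptor, and 817 CPM under albiflorin against 723 CPM under RANKL for Cd68, but the row for Itgam, a classical macrophage integrin, averaged 0 CPM under albiflorin and 0.0245 CPM under RANKL. The 7 matched macrophage genes summed to 4008 to 4183 CPM under albiflorin and 3882 to 4180 CPM under RANKL. Among them Spi1, the macrophage transcription factor PU.1, was higher (308 CPM under albiflorin and 248 CPM under RANKL, edgeR adjusted p = 0.00232), Cd14 was higher (730.1 CPM under albiflorin and 609.5 CPM under RANKL, edgeR adjusted p = 0.0119) and Adgre1 was lower (75.4 CPM under albiflorin and 92.6 CPM under RANKL, edgeR adjusted p = 0.00933). With the length trend described next removed, Spi1 and Adgre1 remained called (adjusted p under 0.05) and Cd14 did not. Dropping RANKL 1 lost the Adgre1 call, and dropping RANKL 2 or albiflorin 1 that of Cd14. The 8 osteoclast genes summed to 184.0 to 194.9 CPM under albiflorin and 189.4 to 206.1 CPM under RANKL. Nfatc1 averaged 122 CPM under albiflorin and 143 CPM under RANKL (lower, edgeR adjusted p = 0.0180), and Acp5 28.0 CPM under albiflorin and 22.9 CPM under RANKL (higher, edgeR adjusted p = 0.0371), neither being called with the trend removed or when RANKL 2, albiflorin 1 or albiflorin 2 was dropped. The Acp5 call was also lost without RANKL 1, in DESeq2 and with replicate number added to the model. Neither Nfatc1 nor Acp5 was called where a trend against the listed gene length was removed instead. Dcstamp, Mmp9 and Atp6v0d2 averaged 19.0, 10.6 and 7.79 CPM under albiflorin and 18.3, 7.65 and 6.03 CPM under RANKL, and Ocstamp and Ctsk were under 1 CPM in both groups, at 0.691 and 0.693 CPM under albiflorin and 0.568 and 0.457 CPM under RANKL. Calcr was at 0 in all 6 libraries. These 5 called markers moved beside the enzymes, and their part in the results below was not tested. The summed markers of osteoblasts or stroma reached 2.38 to 3.30 CPM under albiflorin and 3.04 to 4.59 CPM under RANKL. Those of lymphocytes summed to 0.297 to 0.659 CPM under albiflorin and 0.294 to 0.701 CPM under RANKL, and those of endothelium to 0.297 to 0.593 CPM under albiflorin and 0.147 to 0.877 CPM under RANKL, all near 0.

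The libraries also differed in how counts were spread over long and short mRNAs, and this bears on every result below because many of these enzymes have very long mRNAs. On the fitted curve of each library, genes with an mRNA of 8000 nt lay at -0.10, -0.20 and -0.05 log2 units from the mean of the 6 libraries in albiflorin replicates 1, 2 and 3, against 0.10, 0.18 and 0.07 in the RANKL replicates. Genes of 1000 nt lay the other way, at 0.16, 0.25 and 0.06 under albiflorin and -0.10, -0.23 and -0.12 under RANKL. The groups did not overlap at either length, and replicate 2 was the most extreme library of each group. For these enzymes the fold changes below are therefore given as fitted and again with this trend against mRNA length removed from each library, which takes out any difference that follows mRNA length, whatever its source.

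**Figure D1:**
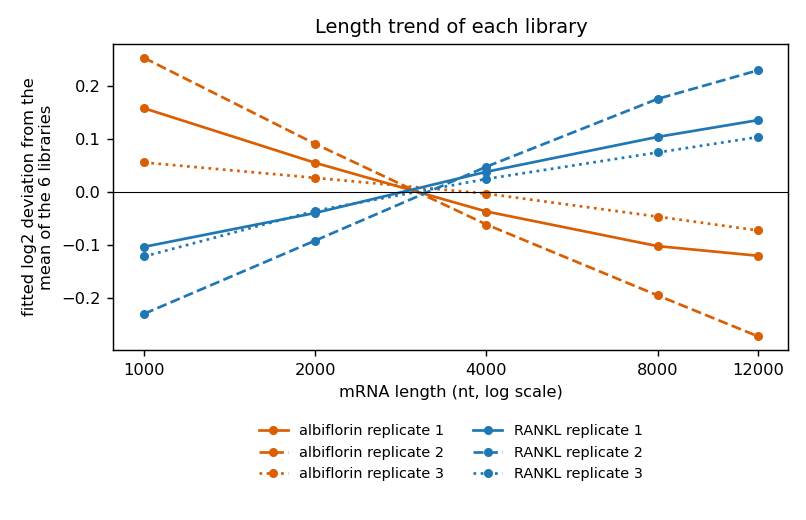
Fitted log2 deviation of each library from the mean of the 6 libraries (vertical axis) against mRNA length in nt (horizontal axis, log scale), with 1 line per library. At 8000 nt the 3 albiflorin lines lie below 0, down to -0.20 in replicate 2, and the 3 RANKL lines lie above it, up to 0.18 in replicate 2.

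The promoters of 3 genes are printed because their calls held in every alternative analysis tried: Kmt2a and Setd1a, both H3K4 methyltransferases lower under albiflorin, and Prmt6, an arginine methyltransferase higher under albiflorin. Setd1b, whose call also held throughout, is named only. Each sequence runs from 250 bases before to 50 bases after the start of the gene, 5′ to 3′ on the gene's strand, from RefSeq on build GRCm38.p6. Capitals mark matches, on either strand, to the motifs searched.
Kmt2a, chr9:44881240-44881539, minus strand: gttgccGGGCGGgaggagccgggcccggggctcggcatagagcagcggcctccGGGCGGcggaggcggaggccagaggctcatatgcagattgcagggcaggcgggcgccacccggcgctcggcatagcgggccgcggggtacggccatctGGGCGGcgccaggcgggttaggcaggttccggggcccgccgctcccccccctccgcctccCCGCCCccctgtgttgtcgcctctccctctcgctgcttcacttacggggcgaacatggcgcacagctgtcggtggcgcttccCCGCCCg
Setd1a, chr7:127777139-127777438, plus strand: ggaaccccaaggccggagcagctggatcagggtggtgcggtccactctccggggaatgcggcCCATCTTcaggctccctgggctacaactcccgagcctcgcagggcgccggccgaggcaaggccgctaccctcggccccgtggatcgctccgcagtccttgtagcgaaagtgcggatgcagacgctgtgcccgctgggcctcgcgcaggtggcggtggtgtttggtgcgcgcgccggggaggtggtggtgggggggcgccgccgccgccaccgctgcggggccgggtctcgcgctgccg
Prmt6, chr3:110250950-110251249, minus strand: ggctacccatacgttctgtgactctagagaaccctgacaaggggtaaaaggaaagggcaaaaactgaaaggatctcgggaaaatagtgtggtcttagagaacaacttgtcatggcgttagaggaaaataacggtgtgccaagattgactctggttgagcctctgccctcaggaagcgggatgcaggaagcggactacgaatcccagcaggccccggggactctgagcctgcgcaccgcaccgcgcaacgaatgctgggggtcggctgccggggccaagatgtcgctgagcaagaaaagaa

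The Kmt2a promoter was 75.7% G and C and held 5 matches to GGGCGG, the GC box bound by SP and KLF factors, 3 on the printed strand and 2 on the other, where they read CCGCCC. The Setd1a promoter was 73.7% G and C and held 1 match, to AAGATGG (the core bound by YY1), on the other strand. The Prmt6 promoter was 55.0% G and C and held none of the 9 motifs searched. Promoter entries were found for 38 of the 50 genes, with 50 entries in all, and their median content of G and C was 62.8%, beside 52.7% over all 32851 promoters of the table. GGGCGG was present in 68.0% of the entries of these genes and in 35.7% of all promoters, and AAGATGG in 12% and 6.34%. The ETS core CCGGAAG was present in 16% and 8.86%, the CACGTG E-box in 10.0% and 7.15%, TTCCCGCC (E2F) in 4.0% and 2.19%, and TGACGTCA (CRE) in 4.0% and 1.79%. CCAAT (NF-Y) was present in 36% and 37.4%, TGANTCA (AP-1) in 8.0% and 7.81%, and the NRF1 motif in 0% and 0.971%. These matches describe letters in the windows and are not evidence of binding.

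Across the 50 genes, RNA of the methylation enzymes was more often lower than higher under albiflorin. Of 48 genes with enough counts to test, 2 were higher, Prmt6 and Setd6, and 19 were lower (adjusted p under 0.05, edgeR quasi-likelihood test over 13158 genes, a gene past this threshold being named called below). Over all genes tested, 12.4% were called higher and 11.4% lower. The 19 genes lower here were 39.6% of those tested, above that share, and the 2 genes higher were 4.17%, below it. The set was chosen with earlier results of these data known, so these shares are a description and no test of it. The median log2 fold change, albiflorin over RANKL, was -0.16 for the 48 genes and 0.01 for all genes tested. Together the 50 genes took 0.439%, 0.404% and 0.446% of all counts in the albiflorin libraries, against 0.497%, 0.525% and 0.510% in the RANKL libraries, so the groups did not overlap.

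With the mRNA-length trend removed, far fewer of these genes were called. Prmt6 remained higher, and Setd1b, Kmt2a and Setd1a remained lower, 1 and 3 of 48, where 4.95% of all genes were then called higher and 5.34% lower. The median of the 48 genes became -0.05. Removing instead the trend against the gene length listed in the table, the joined exons of the gene, gave 3 higher and 8 lower. Over all genes 7.18% were then called higher and 7.96% lower. Prmt6 remained higher and Setd6 did not, while Ezh2 and Kdm3a, which were not called as fitted, were called higher. The 8 lower were Setd1b, Kmt2a, Kmt2d, Setd1a, Kmt2c, Kmt2b, Kmt2e and Ehmt1. In 23 of the 48 genes every albiflorin library lay below every RANKL library, and in 3 (Ezh2, Setd6 and Prmt6) every albiflorin library lay above, beside 19.3% and 20.8% of all genes tested.

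**Figure D2:**
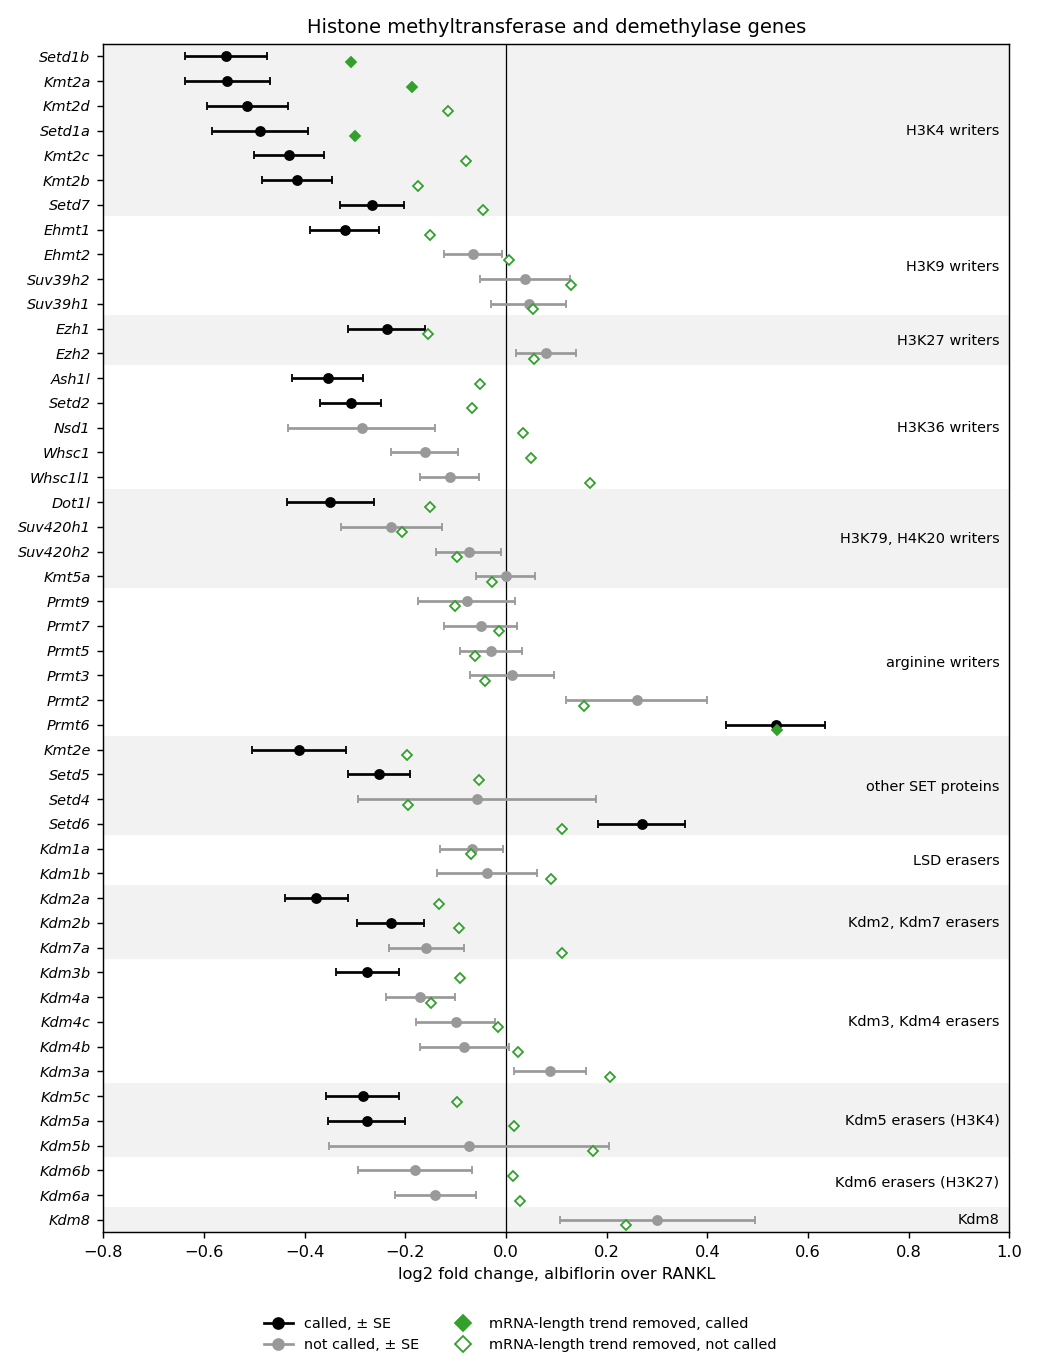
Log2 fold change, albiflorin over RANKL (horizontal axis), of the 48 genes tested, grouped by the residue or family they act on. Circles with bars are the fitted values ± SE, black where called, and diamonds are the values with the mRNA-length trend removed, filled where called. All 7 H3K4 writers are black and left of 0, and the 4 filled diamonds are Setd1b, Kmt2a, Setd1a and Prmt6.

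The H3K4 methyltransferases were called lower throughout. All 7 passed the test, beside 11.4% of all genes called lower, with a median log2 fold change of -0.49. In all 7 the albiflorin libraries lay below the RANKL libraries without overlap, beside 19.3% of all genes. Their mRNAs were 6487 to 19823 nt long. Of all genes with an mRNA over 8000 nt 58.0% were called lower, and of those between 4000 and 8000 nt 28.7%. With the mRNA-length trend removed the median was -0.17 and 3 of the 7 remained called, beside 5.34% of all genes then lower. Kmt2a and Kmt2b (MLL1 and MLL2) act mainly at promoters, Kmt2c and Kmt2d (MLL3 and MLL4) at enhancers, Setd1a and Setd1b carry out most trimethylation of H3K4, and Setd7 is a monomethyltransferase with many non-histone substrates.

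Setd1b (MGP_C57BL6NJ_G0030494, chromosome 5, 131722270 to 131749932) had 44.4, 36.7 and 44.6 CPM in the albiflorin libraries, against 59.8, 61.5 and 63.7 CPM in the RANKL libraries. Its means were 41.9 ± 4.50 CPM under albiflorin and 61.7 ± 1.94 CPM under RANKL (SD, n = 3 each), and every albiflorin library was lower than every RANKL library by more than the spread within either group. RNA of Setd1b fell by 32.0%, with a log2 fold change of -0.56 ± 0.0808 (SE, edgeR adjusted p = 0.000388), and with the mRNA-length trend removed the change was -0.31 ± 0.0692 (edgeR adjusted p = 0.0112). Its partner in name, Setd1a (MGP_C57BL6NJ_G0033546, chromosome 7, 137300076 to 137324789), had 36.1, 27.2 and 35.2 CPM under albiflorin, against 47.5, 45.2 and 45.9 CPM under RANKL. The fall was -0.49 ± 0.0960 (edgeR adjusted p = 0.00221), and -0.30 ± 0.0851 with the trend removed (edgeR adjusted p = 0.0335). Albiflorin replicate 2 was the lowest library for both genes, and both remained called without it.

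Kmt2a (MGP_C57BL6NJ_G0035214, chromosome 9, 44611150 to 44689540) had 202, 163 and 204 CPM in the albiflorin libraries, against 263, 308 and 264 CPM in the RANKL libraries. The means were 190 ± 23.0 CPM under albiflorin and 279 ± 25.6 CPM under RANKL (SD, n = 3 each), and the groups were separated by more than their own spread. Its log2 fold change was -0.55 ± 0.0846 (edgeR adjusted p = 0.000532), and -0.19 ± 0.0519 with the trend removed (edgeR adjusted p = 0.0309). Leaving out any 1 library kept the fold change between -0.61 and -0.46. The related promoter enzyme Kmt2b (chromosome 7, 30538874 to 30558742) had 73.1, 66.0 and 76.3 CPM under albiflorin, against 91.5, 95.4 and 100.3 CPM under RANKL, a change of -0.41 ± 0.0691 (edgeR adjusted p = 0.000801) that was not called with the trend removed, at -0.17 (edgeR adjusted p = 0.0742). The count ratio of Kmt2a to Kmt2b, a pair chosen after its values were seen, was 2.76, 2.47 and 2.68 under albiflorin and 2.87, 3.23 and 2.64 under RANKL, so the groups overlapped.

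Kmt2d (chromosome 15, 104340227 to 104381530), with the longest mRNA of the 50 genes, had 267, 215 and 263 CPM under albiflorin, against 325, 370 and 368 CPM under RANKL. Its change was -0.51 ± 0.0801 (edgeR adjusted p = 0.000587), and -0.12 with the trend removed (edgeR adjusted p = 0.213). The enhancer enzyme Kmt2c (chromosome 5, 24581467 to 24824904) had 137, 123 and 141 CPM under albiflorin, against 177, 194 and 171 CPM under RANKL, at -0.43 ± 0.0687 (edgeR adjusted p = 0.000649), and -0.08 with the trend removed (edgeR adjusted p = 0.330). Both enhancer enzymes were thus lower in every albiflorin library, while their changes with the mRNA-length trend removed did not pass the test. With the trend against listed gene length removed instead, Kmt2d (edgeR adjusted p = 0.0143) and Kmt2c (edgeR adjusted p = 0.0461) were called lower. Setd7 had 159, 167 and 173 CPM under albiflorin, against 197, 213 and 190 CPM under RANKL, at -0.27 ± 0.0630 (edgeR adjusted p = 0.00669), and -0.05 with the trend removed.

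**Figure D3:**
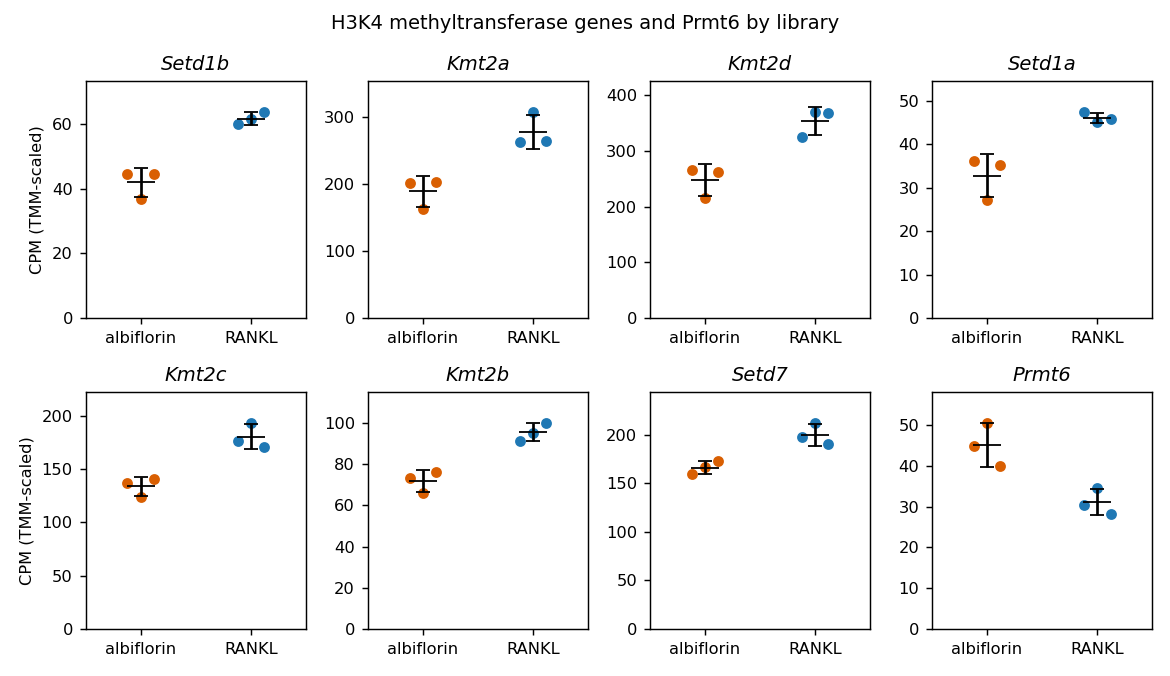
TMM-scaled CPM (vertical axes, from 0) of the 7 H3K4 methyltransferase genes and of Prmt6 in the 3 albiflorin and 3 RANKL libraries. Points are libraries and the bars are the mean ± SD. The albiflorin points lie below the RANKL points in the 7 H3K4 panels and above them for Prmt6.

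Of the 4 H3K9 methyltransferases, 1 was called lower, beside 11.4% of all genes tested. With the mRNA-length trend removed 0 were called, beside 5.34% of all genes then lower. Ehmt1 and Ehmt2 (GLP and G9a) work as a pair that places mono- and dimethylation on H3K9, and Suv39h1 and Suv39h2 place the trimethylation of heterochromatin. Ehmt1 (chromosome 2, 23348000 to 23488514) had 80.0, 71.6 and 85.0 CPM under albiflorin, against 98.5, 97.8 and 99.1 CPM under RANKL. The change was -0.32 ± 0.0685 (edgeR adjusted p = 0.00371), and -0.15 with the trend removed (edgeR adjusted p = 0.0979). Ehmt2 had 264, 257 and 272 CPM under albiflorin, against 280, 270 and 280 CPM under RANKL, groups that overlapped slightly, at -0.07 (edgeR adjusted p = 0.449), and 0.01 with the trend removed. The ratio of Ehmt2 to Ehmt1 counts, a pair chosen after its values were seen, was 3.30, 3.59 and 3.20 in the albiflorin libraries and 2.84, 2.76 and 2.83 in the RANKL libraries, without overlap. The Ehmt1 mRNA is 5953 nt long and that of Ehmt2 4026 nt. Suv39h1 averaged 59.7 ± 4.52 CPM under albiflorin and 57.9 ± 3.33 CPM under RANKL (SD, n = 3 each), at 0.04, and 0.05 with the trend removed. Suv39h2, at 0.04, and 0.13 with the trend removed, shares its locus with Dclre1c on the opposite strand. Ash1l, Kdm1a, Kdm1b, Kdm2b, Kdm5a, Whsc1, Setd7, Prmt6 and Prmt7 likewise overlap a gene on the opposite strand with over 100 counts in all, and since it is not given whether counting used the strand, their values are uncertain to that extent.

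Of the 2 catalytic subunits of PRC2, the complex that methylates H3K27, Ezh1 was called lower and Ezh2 was not called. Of all genes tested, 11.4% were called lower. Ezh2, the form of dividing cells, had 155, 168 and 155 CPM in the albiflorin libraries, against 150, 152 and 151 CPM in the RANKL libraries, and Ezh1 had 46.0, 44.2 and 52.0 CPM under albiflorin, against 53.5, 58.3 and 55.7 CPM under RANKL. Ezh2 lay above RANKL and Ezh1 below it in every albiflorin library, but Ezh2 was not called, at 0.08 ± 0.0592 (edgeR adjusted p = 0.361), and 0.06 with the mRNA-length trend removed. Ezh1 was lower, at -0.24 ± 0.0769 (edgeR adjusted p = 0.0344). The Ezh1 call did not hold with the trend removed (-0.16, edgeR adjusted p = 0.156) or when any of 4 libraries (RANKL 2 and 3, albiflorin 1 and 2) was dropped, where its adjusted p reached 0.122 in edgeR. The count ratio of Ezh2 to Ezh1, a pair also chosen after its values were seen, was 3.37, 3.79 and 2.99 under albiflorin, against 2.80, 2.60 and 2.71 under RANKL, again without overlap. The Ezh2 mRNA is 2787 nt long and that of Ezh1 4193 nt. Ezh2 was called higher where the trend against listed gene length was removed (0.19, edgeR adjusted p = 0.0357).

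Of the 5 H3K36 methyltransferases 2 were called lower, beside 11.4% of all genes, and 0 were called with the trend removed, beside 5.34% of all genes then lower. In all 5 the albiflorin libraries lay below the RANKL libraries without overlap, beside 19.3% of all genes. At an unadjusted p under 0.05 in edgeR, 0 were lower and 1 higher with the trend removed. Setd2, the enzyme of H3K36 trimethylation over transcribed gene bodies, had 159, 146 and 157 CPM under albiflorin, against 186, 195 and 192 CPM under RANKL. Its change was -0.31 ± 0.0599 (edgeR adjusted p = 0.00204), and -0.07 with the trend removed (edgeR adjusted p = 0.425). Ash1l, which dimethylates H3K36, had 195, 167 and 201 CPM under albiflorin, against 240, 249 and 231 CPM under RANKL, at -0.35 ± 0.0709 (edgeR adjusted p = 0.00246), and -0.05 with the trend removed. The dimethylating enzymes Nsd1, Whsc1 (Nsd2) and Whsc1l1 (Nsd3) had log2 fold changes of -0.29, -0.16 and -0.11 and were not called, with edgeR adjusted p of 0.171, 0.0890 and 0.179. With the trend removed they were at 0.03, 0.05 and 0.17, on the other side of 0, and still not called. Nsd1 had 8.11, 7.13 and 6.68 CPM in the albiflorin libraries, against 8.51, 8.41 and 9.85 CPM in the RANKL libraries, the fewest counts of the class. With the trend removed the class had a median of 0.03, against -0.29 as fitted, on mRNAs of 7142 to 12784 nt.

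Dot1l, which methylates H3 at lysine 79, and the 3 writers of H4 lysine 20 gave 1 call, lower, beside 11.4% of all genes tested. With the mRNA-length trend removed 0 of these 4 were called, beside 5.34% of all genes then lower. Dot1l had 119, 87.6 and 111 CPM under albiflorin, against 136, 129 and 139 CPM under RANKL, at -0.35 ± 0.0872 (edgeR adjusted p = 0.00921), and -0.15 with the trend removed (edgeR adjusted p = 0.226). Albiflorin replicate 2 was the lowest library for Dot1l, and the gene remained called without it. Kmt5a, the H4K20 monomethyltransferase of dividing cells, had 215, 210 and 211 CPM under albiflorin, against 209, 207 and 221 CPM under RANKL, a change of 0.00 ± 0.0580, and -0.03 with the trend removed. Suv420h1 and Suv420h2 (Kmt5b and Kmt5c), which add the further methyl groups, were at -0.23 (edgeR adjusted p = 0.111) and -0.07 (edgeR adjusted p = 0.447), with overlapping groups, and at -0.21 and -0.10 with the trend removed.

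Among the arginine methyltransferases, Prmt6 was higher and 0 of the 6 tested were lower, whether by edgeR, DESeq2 or limma-voom or at an unadjusted p under 0.05 in edgeR. In edgeR 12.4% of all genes were called higher and 11.4% lower. Prmt6 places asymmetric dimethylation on H3 arginine 2, a mark known to hinder methylation of the neighbouring H3K4. Prmt6 (MGP_C57BL6NJ_G0028212, chromosome 3, 116007249 to 116012138) had 44.8, 50.6 and 39.9 CPM in the albiflorin libraries, against 30.5, 34.6 and 28.2 CPM in the RANKL libraries. Means were 45.1 ± 5.35 CPM under albiflorin and 31.1 ± 3.25 CPM under RANKL (SD, n = 3 each), every albiflorin library was higher than every RANKL library, and the mean difference was 44.9% of the RANKL level on the fitted scale. The log2 fold change was 0.54 ± 0.0986 (edgeR adjusted p = 0.00153), and 0.54 ± 0.0959 with the mRNA-length trend removed (edgeR adjusted p = 0.00302), so its value did not depend on that step. The Prmt6 mRNA is 3051 nt long, close to the length at which the fitted curves of the libraries cross. An antisense gene, C130013H08Rik, overlaps Prmt6 and held 173 counts in all over the 6 libraries, against 3305 for Prmt6.

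The other arginine methyltransferases did not pass the test. Prmt5, the main symmetric enzyme, averaged 90.2 ± 2.72 CPM under albiflorin and 92.1 ± 3.15 CPM under RANKL (SD, n = 3 each), at -0.03, and -0.06 with the trend removed. Prmt3, Prmt7 and Prmt9 had log2 fold changes of 0.01, -0.05 and -0.08, and of -0.04, -0.01 and -0.10 with the trend removed. Prmt2 had 15.7, 13.0 and 14.1 CPM under albiflorin, against 10.1, 11.0 and 14.6 CPM under RANKL, at 0.26 (edgeR adjusted p = 0.197), or 0.16 with the trend removed, and was called without RANKL replicate 3, its highest RANKL library (edgeR adjusted p = 0.0417). Prmt8, a brain enzyme, was at 0 counts throughout, and in the shallowest library a count of 0 leaves room for 0.219 CPM from counting error alone.

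The 4 SET-domain proteins with non-histone or unsettled substrates divided into 1 gene higher, 2 lower and 1 not called. Over all genes tested, 12.4% were called higher and 11.4% lower. Setd6, known to methylate the NF-kB subunit RelA, had 36.9, 37.3 and 36.2 CPM in the albiflorin libraries, against 32.1, 27.4 and 32.2 CPM in the RANKL libraries. The groups did not overlap, at 0.27 ± 0.0858 (edgeR adjusted p = 0.0317), on an mRNA of 1707 nt, the shortest of those tested. The Setd6 call was lost with the trend removed (0.11, edgeR adjusted p = 0.395) and when any of 3 libraries (RANKL 2, albiflorin 1 and 2) was dropped, where the edgeR adjusted p reached 0.133. Kmt2e (MLL5), regarded as lacking methyltransferase activity, had 104, 77.1 and 96.4 CPM under albiflorin, against 125, 134 and 111 CPM under RANKL, at -0.41 ± 0.0934 (edgeR adjusted p = 0.00522), and -0.20 with the trend removed (edgeR adjusted p = 0.104). Setd5, whose own enzymatic activity is disputed, had 199, 185 and 208 CPM under albiflorin, against 233, 242 and 229 CPM under RANKL, at -0.25 ± 0.0620 (edgeR adjusted p = 0.00831), and -0.05 with the mRNA-length trend removed. Setd4 had 5.21, 5.13 and 5.06 CPM under albiflorin, against 5.14, 3.38 and 7.56 CPM under RANKL, where RANKL replicates lay on both sides of the albiflorin libraries, at -0.06, and -0.19 with the trend removed.

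Of the 16 demethylases tested, 5 were called lower (31.2%) and 0 higher, beside 11.4% lower and 12.4% higher over all genes, with a median of -0.15. With the mRNA-length trend removed 0 were called, beside 5.34% lower and 4.95% higher over all genes, and their median was then 0.02. A count of 0 among 16 genes is near what those shares amount to. At an unadjusted p under 0.05 in edgeR, 0 demethylases were higher and 7 lower as fitted, and 1 was higher and 2 lower with that trend removed. DESeq2 and limma-voom each called 0 higher and 5 lower as fitted. Kdm2a, a CpG-island protein that demethylates H3K36, had 145, 129 and 142 CPM in the albiflorin libraries, against 187, 176 and 177 CPM in the RANKL libraries. Its change was -0.38 ± 0.0633 (edgeR adjusted p = 0.000856), the largest fall among the demethylases tested, and -0.13 with the trend removed (edgeR adjusted p = 0.139). The related Kdm2b had 61.5, 67.4 and 66.4 CPM under albiflorin, against 73.3, 77.9 and 77.5 CPM under RANKL, at -0.23 ± 0.0659 (edgeR adjusted p = 0.0190), and -0.09 with the trend removed (edgeR adjusted p = 0.364). Its call was lost when any of 3 libraries (RANKL 2 and 3, albiflorin 1) was dropped. Kdm7a, an H3K9 and H3K27 demethylase, was at -0.16 (edgeR adjusted p = 0.139), and 0.11 with the trend removed.

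Of the 3 H3K4 demethylases of the Kdm5 family, 2 were called lower (66.7%), beside 11.4% of all genes. With the mRNA-length trend removed 0 were, beside 5.34% of all genes. Kdm5c had 105, 94.7 and 117 CPM under albiflorin, against 133, 128 and 127 CPM under RANKL, at -0.28 ± 0.0726 (edgeR adjusted p = 0.0101), and -0.10 with the trend removed. Kdm5a had 98.1, 99.4 and 119 CPM under albiflorin, against 123, 136 and 125 CPM under RANKL, at -0.28 ± 0.0760 (edgeR adjusted p = 0.0152). The Kdm5a call was lost when RANKL 2 or albiflorin 1 was dropped, and the value was 0.02 with the mRNA-length trend removed, on an mRNA of 10944 nt. The count ratio of Kdm5a to Kdm5c, chosen after its values were seen, was 0.933, 1.05 and 1.01 under albiflorin and 0.924, 1.07 and 0.987 under RANKL, so the groups overlapped. Kdm5b was barely present, at 2.35 ± 0.379 CPM under albiflorin and 2.48 ± 0.686 CPM under RANKL (SD, n = 3 each). The other H3K4 demethylases, the flavin enzymes Kdm1a (LSD1) and Kdm1b, were at -0.07 and -0.04, and at -0.07 and 0.09 with the trend removed, and were not called.

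Kdm3b, an H3K9 demethylase, had 162, 158 and 179 CPM in the albiflorin libraries, against 205, 198 and 201 CPM in the RANKL libraries, at -0.28 ± 0.0625 (edgeR adjusted p = 0.00522), and -0.09 with the trend removed. Its relative Kdm3a had 73.5, 84.1 and 79 CPM under albiflorin, against 69.1, 78.4 and 75.0 CPM under RANKL, at 0.09 (edgeR adjusted p = 0.411), and 0.21 with the mRNA-length trend removed (edgeR adjusted p = 0.0611). Kdm3a was called higher, at 0.23 (edgeR adjusted p = 0.0322), where the trend against listed gene length was removed. Kdm4a, which acts on H3K9 and H3K36, had 71.6, 67.9 and 76.3 CPM under albiflorin, against 81.6, 76.8 and 84.4 CPM under RANKL, groups that did not overlap, at -0.17 (edgeR adjusted p = 0.0810), and -0.15 with the trend removed. Kdm4b and Kdm4c were at -0.08 and -0.10, with overlapping groups, and at 0.02 and -0.02 with the trend removed. Kdm4d held 2, 3 and 1 counts under albiflorin and 0, 0 and 2 counts under RANKL, too few to test.

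The H3K27 demethylases were not called. Kdm6b (Jmjd3), an inducible enzyme of activated macrophages that is also known from RANKL-driven osteoclast formation, had 19.2, 14.9 and 19.2 CPM in the albiflorin libraries, against 20.8, 21.3 and 18.4 CPM in the RANKL libraries. The groups overlapped, at -0.18 ± 0.114 (edgeR adjusted p = 0.272), and 0.01 with the trend removed. Kdm6a (Utx), its X-linked relative, had 36.7, 36.9 and 40.6 CPM under albiflorin, against 40.9, 44.9 and 40.0 CPM under RANKL, at -0.14 (edgeR adjusted p = 0.223), and 0.03 with the trend removed. Kdm8, a JmjC protein with an unsettled substrate, had 5.93, 6.09 and 4.78 CPM under albiflorin, against 4.99, 3.63 and 5.06 CPM under RANKL, at 0.30 ± 0.194 (edgeR adjusted p = 0.284), and 0.24 with the trend removed.

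Across the genes, the direction of change went with mRNA length. Spearman's rho between log2 fold change and mRNA length was -0.79 over the 48 genes tested and -0.62 over the 10667 protein-coding genes with a length, and -0.18 and 0.02 with the trend removed. These are descriptions across genes, which share the 6 libraries and are not independent. Of 13 genes with an mRNA over 8000 nt, 9 were called lower (69.2%), beside 58.0% of 491 genes of that length in the table. Of 19 genes between 4000 and 8000 nt, 10 were called lower (52.6%), beside 28.7% of 2866 genes. Of 16 genes under 4000 nt, 0 were called lower and 2 higher (12.5%), beside 3.24% and 18.7% of 7310 genes. At an unadjusted p under 0.05 in edgeR, 2 of these 16 were lower, and DESeq2 and limma-voom each called 0. The median log2 fold changes in the 3 classes, longest first, were -0.35, -0.23 and -0.01 for these genes, beside -0.28, -0.14 and 0.08 for all genes. In each class the median of the methylation enzymes as fitted was thus lower than that of all genes, the differences lying between 0.07 and 0.10 log2 units. Lengths within a class were not matched. With the mRNA-length trend removed the medians were -0.068, -0.046 and -0.034 for these genes, beside -0.012, -0.005 and -0.003 for all genes. These are descriptions with no test.

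**Figure D4:**
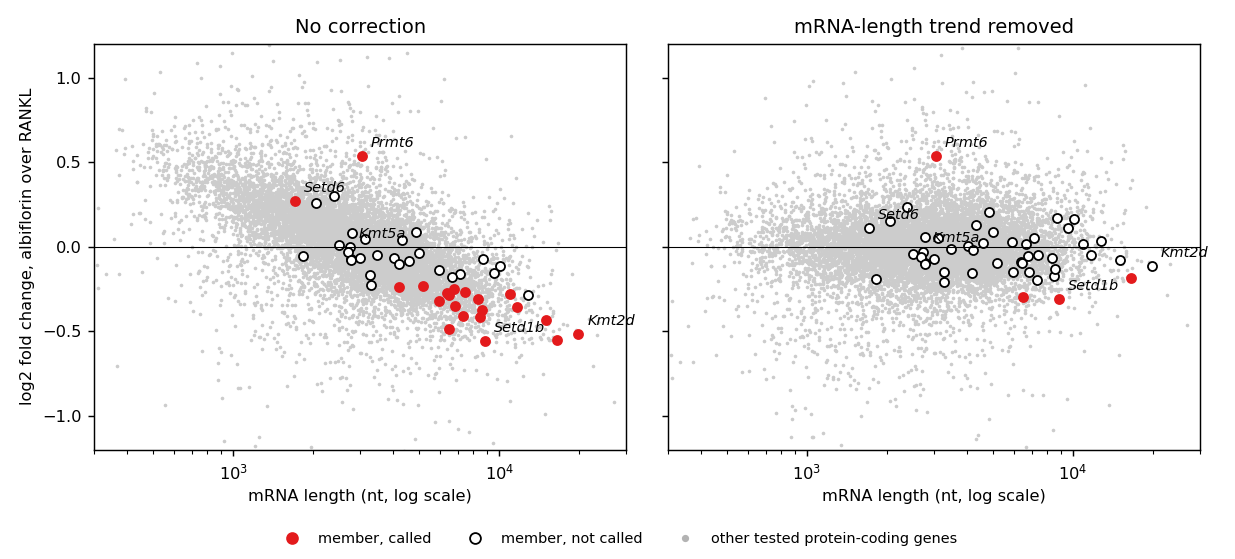
Log2 fold change, albiflorin over RANKL (vertical axis, cut at the same value on both sides of 0), against mRNA length in nt (horizontal axis, log scale), as fitted and with the mRNA-length trend removed. Grey points are the tested protein-coding genes. The 48 methylation enzymes are filled red points where called in that panel and open points where not called. The 31 and 30 of 10667 genes outside the axes are not drawn. The points of the 48 enzymes, filled and open, slope downward with length as fitted, with a rho of -0.79, and lie flatter with the trend removed, at -0.18.

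Most partner proteins of the enzymes did not pass the test. Of 11 partners in the COMPASS complexes that carry the H3K4 writers, 1 was higher and 2 lower (9.09% and 18.2%), near the 12.4% and 11.4% over all genes, with a median of -0.04. Hcfc1, a docking subunit of the Setd1 and MLL1 and MLL2 complexes, had 189, 161 and 192 CPM under albiflorin, against 241, 253 and 247 CPM under RANKL, at -0.45 ± 0.0695 (edgeR adjusted p = 0.000558), and -0.22 with the trend removed (edgeR adjusted p = 0.0149). Ncoa6, of the MLL3 and MLL4 complexes, was at -0.30 (edgeR adjusted p = 0.00319), and at -0.09 with the trend removed. Dpy30, a core subunit on an mRNA of 789 nt, had 50.2, 51.7 and 41.5 CPM under albiflorin, against 35.4, 31.2 and 36.6 CPM under RANKL, at 0.48 ± 0.0936 (edgeR adjusted p = 0.00221), and 0.11 with the trend removed (edgeR adjusted p = 0.384). Of 9 PRC2 partners 1 was called lower (11.1%), near the 11.4% over all genes. This was Jarid2, a DNA-binding subunit, at -0.21 (edgeR adjusted p = 0.0280), and -0.04 with the trend removed (edgeR adjusted p = 0.705). Its call was also lost with the replicate block, with log2(FPKM + 1) and when any of 4 libraries (RANKL 1 and 2, albiflorin 1 and 2) was dropped, where the adjusted p reached 0.103 in edgeR. At an unadjusted p under 0.05 in edgeR, 1 PRC2 partner was higher, and edgeR, DESeq2 and limma-voom each called 0 higher.

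Of 10 partners of Kdm1a in the CoREST complex, 1 was higher and 2 lower (10% and 20%), near the 12.4% and 11.4% over all genes. Rcor1, the CoREST scaffold itself, had 24.1, 14.6 and 21.6 CPM in the albiflorin libraries, against 34.9, 36.1 and 27.8 CPM in the RANKL libraries. Its change was -0.71 ± 0.144 (edgeR adjusted p = 0.00278), and -0.73 ± 0.143 with the trend removed (edgeR adjusted p = 0.00501), while Kdm1a itself was at -0.07. The Rcor1 mRNA is 2720 nt long, and its fall did not shrink with the trend removed. Gse1, another subunit, was at -0.55 (edgeR adjusted p = 0.00262), and -0.34 with the trend removed (edgeR adjusted p = 0.0257). Hdac2, the deacetylase of the complex, was at 0.26 (edgeR adjusted p = 0.0171), and 0.15 with the trend removed (edgeR adjusted p = 0.123). The Hdac2 call was also lost when RANKL 2, albiflorin 1 or albiflorin 2 was dropped.

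Enzymes of the same kinds that the name rule leaves out showed both directions. Of 14 further methyltransferases listed, 12 were matched to a row and 9 could be tested, Setdb1 and Prdm9 being unmatched. Of the 9 tested, 1 was higher and 2 lower (11.1% and 22.2%), near the 12.4% and 11.4% over all genes. Carm1 (Prmt4), an arginine methyltransferase coactivator, had 107, 88.1 and 100.3 CPM under albiflorin, against 123, 126 and 118 CPM under RANKL, at -0.31 ± 0.0715 (edgeR adjusted p = 0.00552), and -0.30 with the trend removed (edgeR adjusted p = 0.00900). Prdm2 was at -0.25 (edgeR adjusted p = 0.0383) and Mettl21a, a lysine methyltransferase of heat-shock proteins, at 0.27 (edgeR adjusted p = 0.0402), and -0.04 and 0.23 with the trend removed, where neither was called. The Prdm2 call was also lost when RANKL 1 or 2 or albiflorin 2 was dropped. That of Mettl21a was lost in DESeq2 and when any library other than albiflorin 3 was dropped. With the trend removed Smyd3 was called higher, at 0.29 (edgeR adjusted p = 0.0438), against 0.08 as fitted. Of 6 further JmjC proteins tested, 2 were higher and 3 lower (33.3% and 50.0%), beside 12.4% and 11.4% over all genes. With the mRNA-length trend removed 0 were higher and 1 lower, beside 4.95% and 5.34% of all genes. Phf8, a demethylase of H3K9 and H4K20, had 68.8, 60.3 and 68.5 CPM under albiflorin, against 82.5, 90.5 and 83.5 CPM under RANKL, at -0.38 ± 0.0708 (edgeR adjusted p = 0.00176), and -0.32 with the trend removed (edgeR adjusted p = 0.00453). Jmjd1c was at -0.24 (edgeR adjusted p = 0.0125) and 0.00 with the trend removed, and Jmjd6 at 0.26 (edgeR adjusted p = 0.0100) and 0.09 with the trend removed. The Jmjd1c call was lost without RANKL replicate 2 and the Jmjd6 call without albiflorin replicate 1. Carm1 and Phf8, with mRNAs of 3220 and 3732 nt, kept nearly the same values in both analyses.

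Of 13 readers of methylated histones 1 was called lower (7.69%) and 0 higher, beside 11.4% and 12.4% over all genes. Bptf, which binds trimethylated H3K4 and is the reader subunit of the NURF remodeller, had 155, 117 and 150 CPM in the albiflorin libraries, against 207, 213 and 207 CPM in the RANKL libraries. The change was -0.57 ± 0.0842 (edgeR adjusted p = 0.000415), and -0.28 ± 0.0615 with the trend removed (edgeR adjusted p = 0.0106). With the trend removed Cbx1, a heterochromatin protein, was called lower as well, at -0.22 (edgeR adjusted p = 0.0236), against 0.02 as fitted. Of the 4 Prmt5 partners 1 was called higher and 0 lower, beside 12.4% and 11.4% over all genes. This was Clns1a, at 0.18 (edgeR adjusted p = 0.0420), and -0.02 with the trend removed. Of the 6 analyses with 1 library dropped, Clns1a was called in the analysis without albiflorin 3. Of 8 genes that supply or recycle SAM, 1 was higher and 1 lower (12.5% each), near the 12.4% and 11.4% over all genes. Mtr, the methionine synthase, was lower at -0.50 ± 0.0827 (edgeR adjusted p = 0.000758), and -0.26 with the trend removed (edgeR adjusted p = 0.0230). Mat2b was higher at 0.23 (edgeR adjusted p = 0.0151), a call lost when albiflorin 1 or 2 was dropped and with the trend removed, at 0.11 (edgeR adjusted p = 0.201). Of 9 genes that make or use 2-oxoglutarate, the cofactor of the JmjC enzymes, 1 was higher and 1 lower (11.1% each). These shares were near the 12.4% and 11.4% over all genes. Idh3g was higher at 0.27 (edgeR adjusted p = 0.0100) and Ogdh lower at -0.21 (edgeR adjusted p = 0.0213), and at 0.04 and -0.13 with the trend removed neither was called. The Idh3g call was lost without RANKL replicate 2, and the Ogdh call when RANKL 1 or 3 or albiflorin 1 or 2 was dropped.

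The enzymes spanned a wide range of RNA levels, given per length in the authors' FPKM. Ehmt2 had 46.4 to 49.3 FPKM under albiflorin and 49.0 to 50.8 FPKM under RANKL, and Kmt5a 46.8 to 48.1 FPKM under albiflorin and 46.5 to 49.5 FPKM under RANKL. These were the highest of the 50 genes in both groups, and their values overlapped. Kdm1a averaged 26.4 FPKM under albiflorin and 27.7 FPKM under RANKL, Kdm3b 22.9 FPKM under albiflorin and 27.8 FPKM under RANKL, Prmt5 24.0 FPKM under albiflorin and 24.6 FPKM under RANKL, and Ezh2 23.7 FPKM under albiflorin and 22.5 FPKM under RANKL. The order among these 4 genes differed between the groups. Among the H3K4 writers Setd7 (15.3 FPKM under albiflorin and 18.4 FPKM under RANKL) and Kmt2d (12.4 FPKM under albiflorin and 17.7 FPKM under RANKL) were highest, with values that overlapped between the genes in the RANKL libraries. At the low end, as means of the 6 libraries, were Setd4 at 1.14, Nsd1 at 0.633, Kdm5b at 0.145 and Kdm4d at 0.0362 FPKM, and Prmt8 was listed at 0. FPKM divides by all joined exons of a gene, and the order changed per kilobase of the principal mRNA. On that scale Kmt5a (77.5 CPM per kb) stood above Ehmt2 (67.2 CPM per kb), Ezh2 moved to rank 3 against rank 6, Setd5 to rank 6 against rank 20, Kdm3b to rank 7 against rank 4 and Suv420h1 to rank 28 against rank 43.

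**Figure D5:**
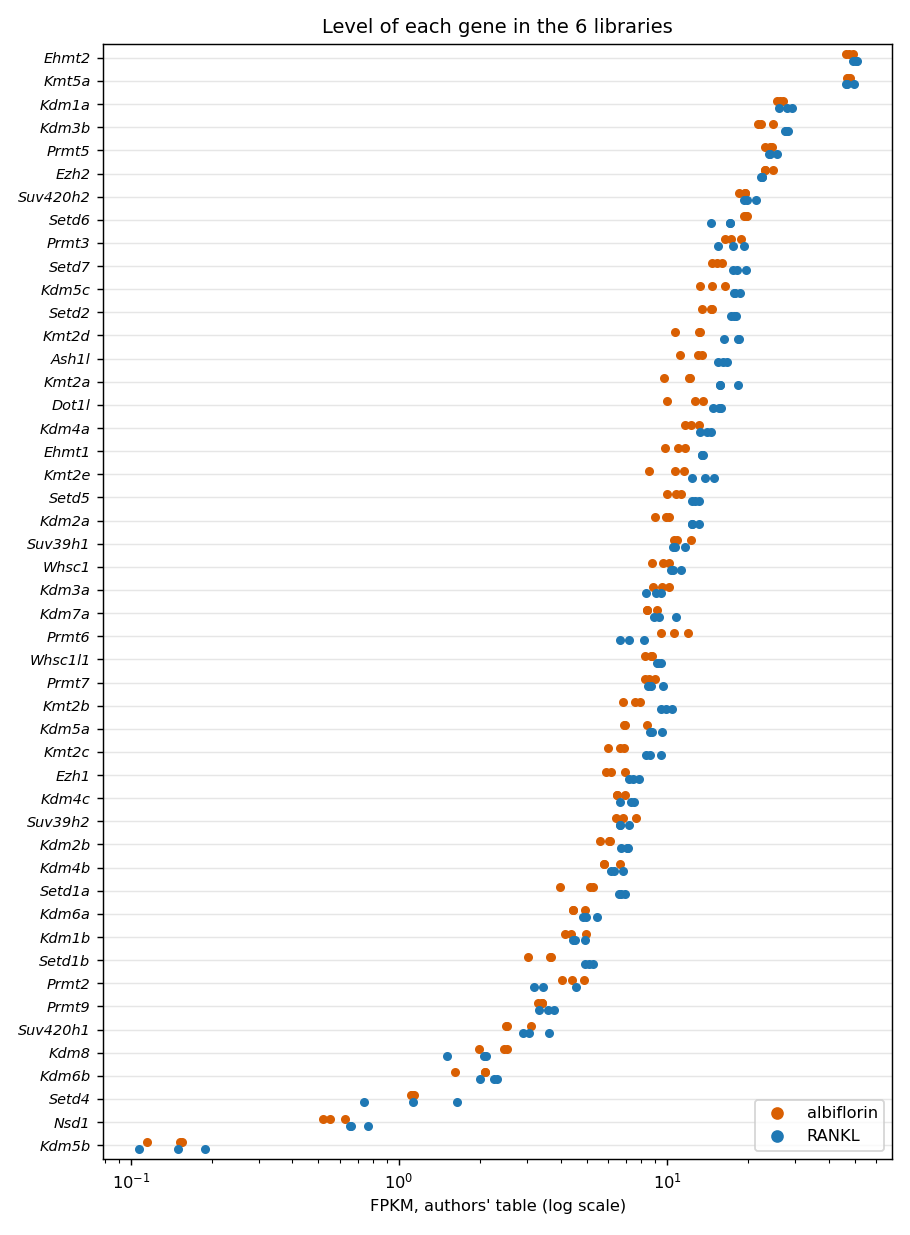
FPKM of each gene as listed in the authors' table (horizontal axis, log scale) in the 3 albiflorin and 3 RANKL libraries, ordered by the mean of the 6 libraries. Each point is a library. Kdm4d and Prmt8, with means of 0.0362 and 0 FPKM, are not drawn, and Ehmt2 and Kmt5a lie at the top, with means of 49.0 and 47.5 FPKM.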

How the data were processed

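RNA-seq of RAW264.7 cells was analysed from tables the authors deposited: raw counts per gene, the unit tested here, and FPKM, used for levels and as an alternative test. The labels' protocols name TRIzol extraction and a Fast RNA-seq Lib Prep Kit V2; tools listed without roles in the submitters' processing notes are featureCounts 2.0.6-p3, HISAT2 2.2.1, fastp, DESeq2 1.42.0 and CASAVA 1.8. Which genome build was used is not given in the sources here. Gene IDs carry the Ensembl prefix of C57BL/6NJ, and gene coordinates are as deposited. No per-sample column was left unused (0).

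Group came from the titles. Counts were filtered with edgeR's filterByExpr (13158 genes kept), scaled by TMM and tested with edgeR 4.0.16 in R 4.3.3 (quasi-likelihood F-test, Benjamini-Hochberg adjusted p under 0.05, all 6 libraries, group as the only term). The SE is the absolute log2 fold change over the square root of F. For the length trend, each library's log2 CPM deviation (prior count 2) was smoothed against log10 length by lowess (span 0.3, genes with mean log2 CPM over 3) and entered as an offset. The mRNA length is that of the principal transcript in GENCODE M21, matched by symbol; protein-coding or other genes without one took the listed length. Alternatives were RLE scaling, DESeq2 1.42.0, limma 3.58.1 (voom, or log2 of FPKM plus 1 or 0.1), no filter, a stricter filter (5 CPM in 3 libraries), a replicate block and each library left out. Scripts were tested on simulated data. The limit for 0 counts is 3 counts and covers counting error only. Replicates differed by more than sampling noise, so none was counted as a duplicate.

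The genes, classes and partner lists were chosen with earlier results of these data known. Described in full were per direction, the 10 called genes of smallest p, every gene of a class with calls in both directions, and up to 3 called genes per partner list. Genes outside this rule are given by their values alone. Whsc1, Whsc1l1, Suv420h1 and Suv420h2 were matched to their current names through a symbol table. Some listed partner and marker genes had no unique match by symbol among the protein-coding rows and were not analysed. These were Pagr1a, Setdb1, Prdm9, Uhrf1, Ahcy, Lyz2 and Bglap.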

Additional observations from a re-analysis of the deposited data

How the results depend on the processing

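The number of calls and the size of the changes here depended mostly on the length trend. Over all genes, 1631 were called higher and 1496 lower. Removing the mRNA-length trend gave 651 higher and 702 lower, removing the gene-length trend 945 higher, and the gene-length trend with the replicate block 813 higher and 887 lower; log2(FPKM + 1) gave 901 lower and log2(FPKM + 0.1) 909 lower. Leaving out 1 library gave 984 to 1753 higher and 914 to 1644 lower, with the fewest higher without albiflorin replicate 1 (984), RANKL replicate 2 (1010) and albiflorin replicate 2 (1025), and the fewest lower without RANKL replicate 2 (914), albiflorin replicate 1 (977) and albiflorin replicate 2 (999). Of the methylation enzymes, 2 were higher and 19 lower; without the mRNA-length trend these became 1 and 3, and 8 were lower without the gene-length trend, whether or not the block was added. Leaving out 1 library gave 1 to 3 higher and 16 to 22 lower. Their median of -0.16 became -0.0488 without the mRNA-length trend, -0.0289 without the gene-length trend, -0.0257 without the gene-length trend and with the replicate block, and -0.12 with log2(FPKM + 1), and leaving out 1 library gave -0.21 to -0.14. Kdm5a turned to 0.0157 with the mRNA-length trend removed, and Setd5 to 0.00485 without the gene-length trend, or 0.00477 with the block as well. RLE scaling, DESeq2 and limma-voom left all 48 genes as they were, 21 called and 27 not. Of the 21 called genes, 4 (Setd1b, Kmt2a, Setd1a and Prmt6) were called the same way in all 17 alternatives, and Ezh1, Dot1l, Kdm2b, Kdm5a and Kmt2e were lost with log2(FPKM + 1) as well as with the mRNA-length trend removed. Without albiflorin replicate 3, Whsc1, Suv420h1 and Kdm4a were called lower. In 16 genes called neither way the sign changed under some alternative, 44 times in all. Depth limits Kdm4d and Prmt8, which had too few counts to test, and the cause of the length trend was not tested.

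No pairing of the libraries by replicate number was seen, though these correlations cannot show whether same-numbered libraries were handled together. Correlations of the deviations of same-numbered libraries from their group means were 0.02, -0.04 and -0.07, and not every library correlated best with its own number. With the replicate block, 1358 genes were higher and 1214 lower over the table, and 2 and 18 of the methylation enzymes, Ezh1 being lost.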
